A study of Mus musculus with 12 samples.

Results

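The death receptor genes described here are Fas and its ligand Fasl, the TRAIL gene Tnfsf10, the mouse TRAIL receptor gene Tnfrsf10b, and the clustered receptor genes Tnfrsf22, Tnfrsf23 and Tnfrsf26. They were taken by symbol, and all 7 were found among the 55453 genes in the count file. The set was chosen by family around Tnfrsf23, with its measured counts known. The comparison behind that choice is taken to be KO PBS against WT PBS, but no source states it. Values from that comparison are therefore given as a description, without a test, and so are those of Tnfrsf23 and Tnfrsf26 between bleomycin-treated KO and WT mice. Bulk RNA-Seq was performed on skin harvested at day 21 from 12 mice, 3 in each of 4 groups. The WT PBS and WT BLM groups were wild-type mice, named C57/BL6 in the labels and C57BL/6J in the methods, given PBS or bleomycin, an antibiotic that breaks DNA and causes dermal fibrosis. The KO PBS and KO BLM groups were Thy1-knockout mice given the same injections. Bleomycin (10 mg/kg/d) or PBS was injected daily s.c. at 2 spots of the back for up to 14 days. The methods give sex and age for the Thy-1–KO mice only, which were female and 8 to 12 weeks old. The strain is a global knockout and had been backcrossed for at least 10 generations to C57BL/6. The study states that controls were littermates, whereas the labels name no litter, cage or batch. The study examined apoptosis through FASL staining of bleomycin-treated skin, where it reported fewer FASL-positive cells in KO mice. From its RNA-Seq, it also reported the KEGG apoptosis pathway as significantly raised by bleomycin in WT but not KO mice. It reported that pathway as lower in KO than in WT mice given bleomycin. The values given here describe how transcripts of single genes differed between treatments and genotypes.

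Death receptors are members of the TNF receptor superfamily that carry an intracellular death domain. When FASL binds FAS, or TRAIL binds its receptor, the adaptor FADD and caspase-8 are recruited and a caspase cascade is started. Decoy receptors bind ligand without a functional death domain. In the mouse, Tnfrsf22 and Tnfrsf23 encode decoy receptors for TRAIL, and Tnfrsf26 encodes a related receptor of the same gene cluster. In skin, FASL is known mainly from activated T cells and NK cells, whereas FAS is made by many cell types.

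In GENCODE M21 (GRCm38), Tnfrsf26 (chr7:143607659-143628722), Tnfrsf22 (chr7:143634806-143649661) and Tnfrsf23 (chr7:143665809-143685872) lie side by side on the minus strand of chromosome 7 and span 78.2 kb. Fas is on chromosome 19 (chr19:34290666-34327772, plus strand), Fasl on chromosome 1 (chr1:161780689-161788495, minus strand), Tnfsf10 on chromosome 3 (chr3:27317028-27342427, plus strand) and Tnfrsf10b on chromosome 14 (chr14:69767472-69784411, plus strand). All 7 are protein-coding genes. The coding sequence of Tnfrsf22 was 540 bases long, that of Tnfrsf23 528 bases and that of Tnfrsf26 612 bases, against 1143 bases for Tnfrsf10b and 981 bases for Fas. Tnfrsf22 and Tnfrsf23 were 88.8% identical over 510 aligned coding bases. Tnfrsf26 was 63.7% identical to Tnfrsf22 and 60.8% identical to Tnfrsf23. The likeness of Tnfrsf22 and Tnfrsf23 bears on how reads can be assigned, so 3 of their 6 coding exons are printed, with capitals at the bases that differ within each pair. Coding exon 2 differed at 15 of 91 bases, coding exon 3 at 8 of 129 bases and coding exon 5 at 0 of 74 bases.
Tnfrsf22 coding exon 2, chr7:143644781-143644871, minus strand: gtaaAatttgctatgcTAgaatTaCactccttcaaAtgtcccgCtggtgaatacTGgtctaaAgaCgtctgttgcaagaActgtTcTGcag
Tnfrsf23 coding exon 2, chr7:143681460-143681550, minus strand: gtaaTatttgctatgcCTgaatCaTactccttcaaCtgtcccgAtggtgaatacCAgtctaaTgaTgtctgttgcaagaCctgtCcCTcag
Tnfrsf22 coding exon 3, chr7:143643276-143643404, minus strand: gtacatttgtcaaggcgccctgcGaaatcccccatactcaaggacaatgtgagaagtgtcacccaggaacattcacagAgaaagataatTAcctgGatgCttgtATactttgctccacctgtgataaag
Tnfrsf23 coding exon 3, chr7:143679945-143680073, minus strand: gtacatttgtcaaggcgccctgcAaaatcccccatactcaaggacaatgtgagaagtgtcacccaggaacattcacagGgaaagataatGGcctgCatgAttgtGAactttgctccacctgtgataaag
Tnfrsf22 coding exon 5, chr7:143639902-143639975, minus strand: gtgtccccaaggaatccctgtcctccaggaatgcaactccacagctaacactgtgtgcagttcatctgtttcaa
Tnfrsf23 coding exon 5, chr7:143669982-143670055, minus strand: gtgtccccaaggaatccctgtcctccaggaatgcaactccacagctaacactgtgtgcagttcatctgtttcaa

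Fragments shared by the annotated transcripts of both genes were counted directly. Of the 75-base windows, 527 were common to both genes, which was 12.6% of those of Tnfrsf22 and 13.1% of those of Tnfrsf23. At 50 bases, 719 windows were common, or 17.3% and 18% respectively. None was common with Tnfrsf26 or Tnfrsf10b at either length. Counts of Tnfrsf22 and Tnfrsf23 are therefore uncertain for reads that fall in the shared windows, while those of Tnfrsf26 share no such window. An antisense gene, E230032D23Rik, overlaps the cluster, with 164 exonic bases in common with Tnfrsf23 and 107 with Tnfrsf26. It had 0, 2 and 4 counts in the WT PBS mice and 2, 6 and 2 in the WT BLM mice. The KO PBS mice had 0, 0 and 0 counts and the KO BLM mice 0, 1 and 0. With counts this low, the gene was not tested. Whether the counting used strand is not given in the sources used here, although the libraries were stranded.

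Library totals ran from 26473700 to 38890450 counts. Levels are given as CPM, which are counts per library size after TMM scaling, a normalization that compares libraries through genes of similar level, and are means ± SD over 3 mice. Thy1, the targeted gene, was counted in all 12 mice, with 45.6 to 96.8 CPM in KO PBS mice against 104 to 150 CPM in WT PBS mice, and 84.6 to 128 CPM in KO BLM mice against 231 to 416 CPM in WT BLM mice. It was lower in KO than in WT mice within each treatment, but counts per gene cannot tell transcripts of the targeted allele from intact ones. Genes of growing hair separated the mice in another way than the labels. Their mean log2 CPM was 9.67 to 10.33 in WT PBS and -0.44 to 3.62 in WT BLM mice, against -0.91 to 10.31 in KO PBS and 5.22 to 9.17 in KO BLM. The highest KO PBS value belonged to replicate 136 and the highest KO BLM value to replicate 141, and results that rest on these mice are given with and without them. Keratinocyte and fibroblast markers were present in every group. In bulk skin, fewer cells of a type and less RNA per cell cannot be told apart.

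Tnfrsf23 was nearly absent from the counts of every KO mouse. The 3 WT PBS mice (replicates 159, 160 and 161) had 192, 189 and 310 counts, and the 3 WT BLM mice (145, 146 and 147) had 695, 890 and 949. The KO PBS mice (136, 137 and 139) had 0, 5 and 3 counts, and each of the 3 KO BLM mice (141, 143 and 144) had 3. Both WT groups thus stood apart from both KO groups, and the KO groups overlapped each other. The level was 6.87 ± 0.901 CPM in WT PBS and 29.1 ± 1.97 in WT BLM mice, against 0.0774 ± 0.0721 in KO PBS and 0.0969 ± 0.00787 in KO BLM (n = 3 each). Over summed counts, corrected for library size, WT BLM exceeded KO BLM 303-fold. The ratio in PBS-treated mice was 85.9, in the comparison taken to have singled the gene out. These ratios pool the mice of a group, so they hold no spread between mice. Tnfrsf23 passed the filter on low counts through its WT mice alone, since no KO mouse reached the 0.318 CPM that the filter required.

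Tnfrsf26 followed the same order of groups at lower counts. The WT PBS mice had 35, 37 and 30 counts and the WT BLM mice 164, 375 and 312. In KO mice, there were 0, 1 and 7 counts under PBS and 7, 6 and 15 under bleomycin. No KO mouse reached the lowest WT mouse, and apart from the WT mice 1 KO BLM mouse reached the level that the filter on low counts required. The level was 1.05 ± 0.252 CPM in WT PBS and 9.62 ± 2.95 in WT BLM mice, against 0.079 ± 0.113 in KO PBS and 0.31 ± 0.191 in KO BLM. The ratio of WT BLM to KO BLM over summed counts was 32.7, and that of WT PBS to KO PBS was 12.7, again without the spread between mice.

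Tnfrsf22, which lies between these genes, was well counted in KO mice. The WT PBS mice had 151, 112 and 152 counts and the WT BLM mice 246, 276 and 219. The KO PBS mice had 72, 156 and 123 counts and the KO BLM mice 112, 162 and 126. The 3 WT BLM mice were above all 9 other mice, while WT PBS, KO PBS and KO BLM overlapped one another. The level was 4.22 ± 0.772 CPM in WT PBS and 8.6 ± 1.27 in WT BLM mice, against 3.5 ± 1.04 in KO PBS and 4.3 ± 0.808 in KO BLM.

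**Figure D1:**
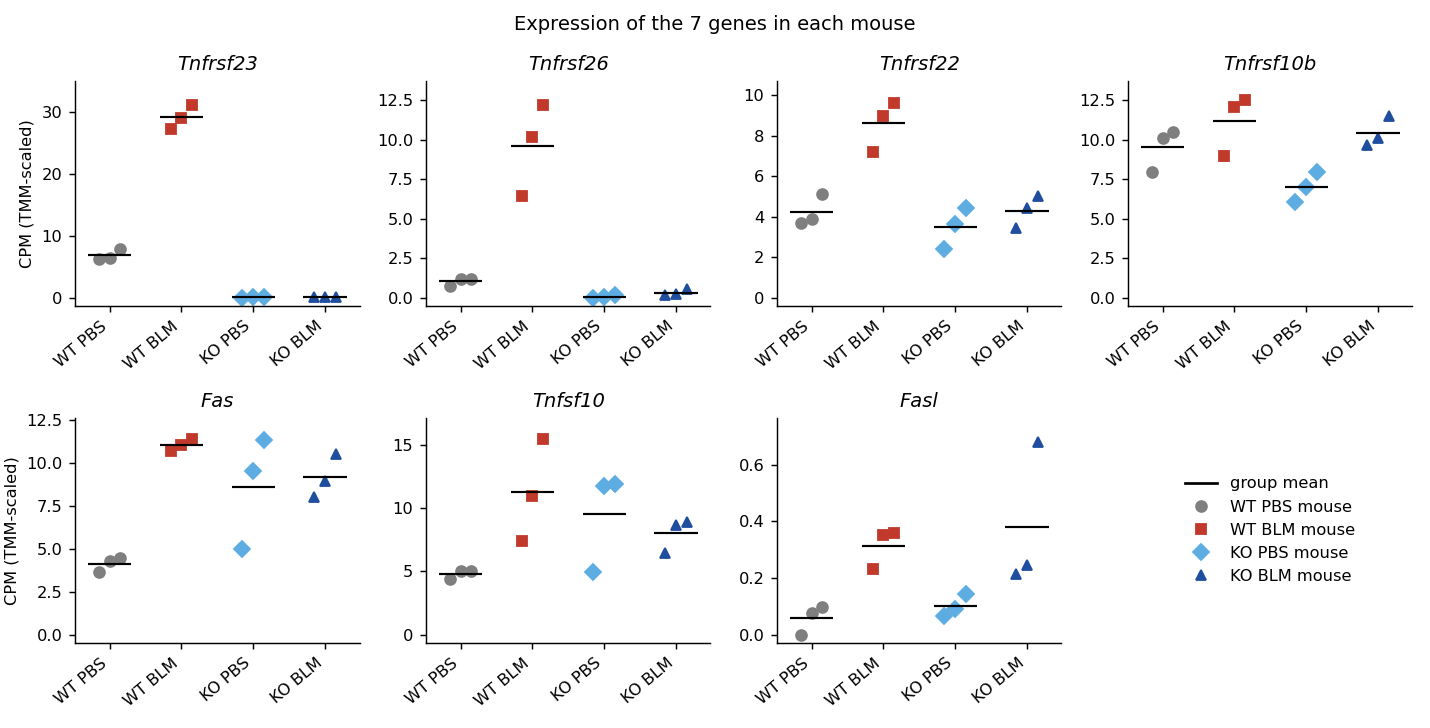
Level of each of the 7 genes in CPM (TMM-scaled, linear axes that include 0) for every mouse, with 3 mice per group sorted by value and a line at the group mean. Tnfrsf23 and Tnfrsf26 lie near 0 in all 6 KO mice, Tnfrsf22 is highest in the 3 WT BLM mice, and Fas is lowest in the 3 WT PBS mice.

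The clustered receptor genes rose with bleomycin in WT mice. In edgeR's quasi-likelihood test (Benjamini-Hochberg adjusted across 18311 genes), Tnfrsf23 rose by a log2 fold change of 2.08 ± 0.34 (SE, adjusted p = 0.00477), Tnfrsf26 by 3.19 ± 0.62 (edgeR adjusted p = 0.0072) and Tnfrsf22 by 1.03 ± 0.26 (edgeR adjusted p = 0.0175). Fas and Tnfsf10 also rose. Of the 6 genes that reached the level required by the filter on low counts in every WT mouse, 5 were thus called, all higher, against 34% of all genes tested that were called and 19.8% called higher. The same 5 genes were without overlap between WT BLM and WT PBS, as were 57% of all genes in either direction. Fasl, which reached that level in 0 WT PBS mice, is left out of these counts and described with its values further on. Fasl, Tnfsf10 and Tnfrsf22 were not past the threshold without WT PBS replicate 160 or 161 (3 genes called). Fasl and Tnfsf10 were also not past it without WT PBS replicate 159, WT BLM replicate 146 or WT BLM replicate 147 (4 genes called). Over all genes, calls fell from 6222 to 2615 without replicate 160 and to 3388 without replicate 161. With the growing hair genes as a covariate in the model, 0 of the 7 were past the threshold, and 14 genes were called over the whole table.

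No change with bleomycin passed the test in KO mice. The count was 0 of 7 by edgeR, where 0.306% of all genes were called. It was 0 by DESeq2, which called 6.14% of all genes. Of the 4 genes that reached the filter level in every KO mouse, 1 (Tnfrsf10b) had an unadjusted p under 0.05, as did 20% of all genes. Tnfrsf23 differed by a log2 fold change of 0.26 ± 0.61 (edgeR adjusted p = 0.862), Tnfrsf26 by 1.88 ± 0.81 (edgeR adjusted p = 0.232) and Tnfrsf22 by 0.29 ± 0.26 (edgeR adjusted p = 0.543). For Tnfrsf23 and Tnfrsf26, counts this low leave room for sizeable changes, and the fitted values depend on the small count that the model adds.

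Between bleomycin-treated mice, the counts of Tnfrsf23 and Tnfrsf26 were lower in every KO mouse than in every WT mouse. The fitted log2 fold change of KO BLM against WT BLM was -8.18 ± 0.49 for Tnfrsf23 and -4.96 ± 0.69 for Tnfrsf26. Over the 20 alternatives tried it lay between -8.24 and -7.56 for Tnfrsf23 and between -5.56 and -4.69 for Tnfrsf26. Tnfrsf23 met the filter on low counts through WT mice alone, and Tnfrsf26 through the 6 WT mice and 1 KO BLM mouse. A difference between genotypes was thus built into their passing, and they enter no count of calls between genotypes. Of the 4 genes that reached the filter level in every mouse of both groups, 0 were called by edgeR, where 0.0928% of all genes were, and 1 (Tnfrsf22) had an unadjusted p under 0.05, as did 16.6% of all genes.

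Tnfrsf22 was lower in KO BLM than in WT BLM by a log2 fold change of -1 ± 0.26, which did not pass the test (edgeR adjusted p = 0.212) although the groups did not overlap. It was past the threshold in DESeq2 (adjusted p = 0.0145), which called 3.34% of all genes, and without KO PBS replicate 136 (edgeR adjusted p = 0.0313), and in no other alternative. Fas was also lower in every KO BLM mouse than in every WT BLM mouse, by a narrow margin (10.5 against 10.7 CPM at the nearest mice). Its log2 fold change was -0.27 ± 0.26 (edgeR adjusted p = 0.592). Tnfrsf22 and Fas were thus the 2 of the 4 evenly counted genes without overlap, against 27.5% of all genes without overlap and 12.9% lower. In PBS-treated mice, where no test was made, the log2 fold change of KO against WT was -6.35 ± 0.47 for Tnfrsf23, -3.64 ± 0.76 for Tnfrsf26 and -0.27 ± 0.26 for Tnfrsf22. Of the 4 evenly counted genes, 2 were without overlap, Fas higher and Tnfrsf10b lower, against 18.9% of all genes.

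**Figure D2:**
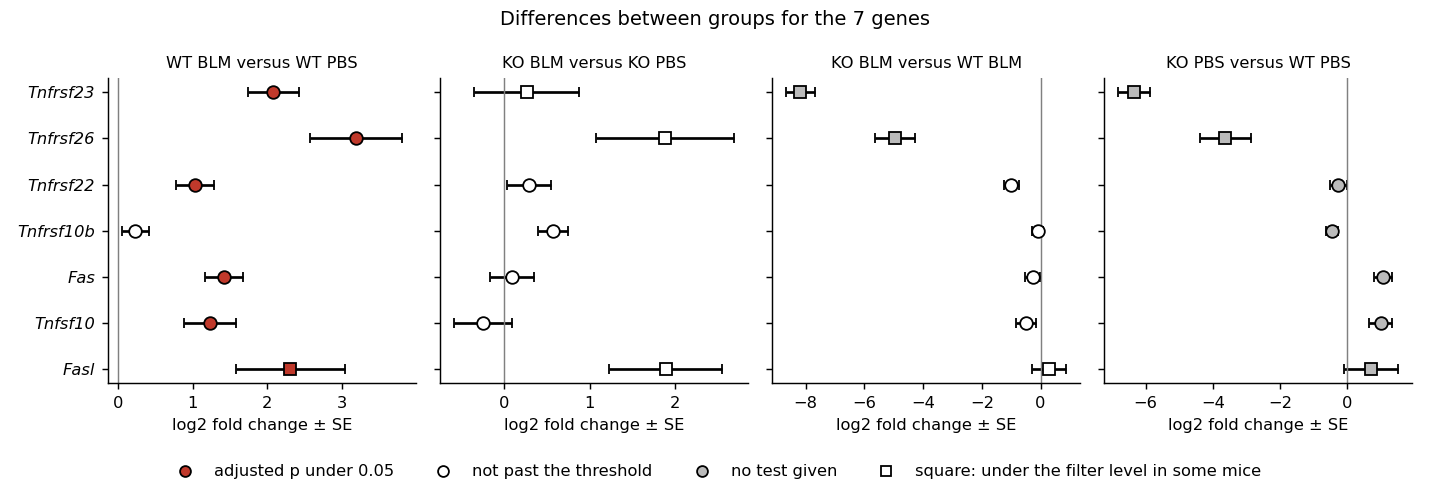
Log2 fold change ± SE of the 7 genes in 4 comparisons of groups, each panel with its own scale; red points passed edgeR's test, open points did not, grey points are given without a test, and squares mark genes under the filter level in some mice of the groups compared. Of the round points, 5 passed in WT mice and 0 in KO mice or between bleomycin-treated KO and WT mice, and the grey squares of Tnfrsf23 and Tnfrsf26 lie farthest to the left.

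The tested genes around the cluster did not show differences between genotypes of this size. Within 500 kb of the cluster, 35 other genes are annotated, 34 were listed and 10 were tested. Of these 10, 0 were called by edgeR between KO BLM and WT BLM, where 0.0928% of all genes were. With so small a share, few calls could arise among 10 genes. At an unadjusted p under 0.05 there was 1, as for 16.6% of all genes, and by DESeq2 1, as for 3.34%. The log2 fold changes of the 10 genes ran from -1.26 to 0.96. Between KO PBS and WT PBS, for which no test is given, their log2 fold changes ran from -0.86 to 0.26. Osbpl5, an oxysterol-binding protein gene 2.9 kb from the Tnfrsf23 end, had 134 ± 4.87 CPM in WT PBS and 167 ± 38 in WT BLM mice, against 158 ± 33.3 in KO PBS and 152 ± 20.9 in KO BLM. Cars, the cysteinyl-tRNA synthetase gene 7.6 kb from the Tnfrsf26 end, had 92.9 ± 8.91, 56.2 ± 10.5, 60.3 ± 29.3 and 72.7 ± 3.8 CPM in the same order. For both genes the KO mice lay at levels of the same order as the WT mice. Farther away, the imprinted growth inhibitor gene Cdkn1c rose with bleomycin in WT mice by 1.38 ± 0.37 on the log2 scale (edgeR adjusted p = 0.0212). It was the 1 neighbour of 10 called in that comparison, where 34% of all genes were. At an unadjusted p under 0.05 there were 4, as for 47.4% of all genes, and by DESeq2 3, as for 34.2%. The log2 fold change of Cdkn1c in KO BLM against WT BLM was -1.26 ± 0.37 (edgeR adjusted p = 0.233). The other 7 neighbours, Kcnq1ot1, Slc22a18, Phlda2, Nap1l4, Mrgpre, Nadsyn1 and Dhcr7, had log2 fold changes of KO BLM against WT BLM between -0.89 (Mrgpre) and 0.96 (Phlda2).

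**Figure D3:**
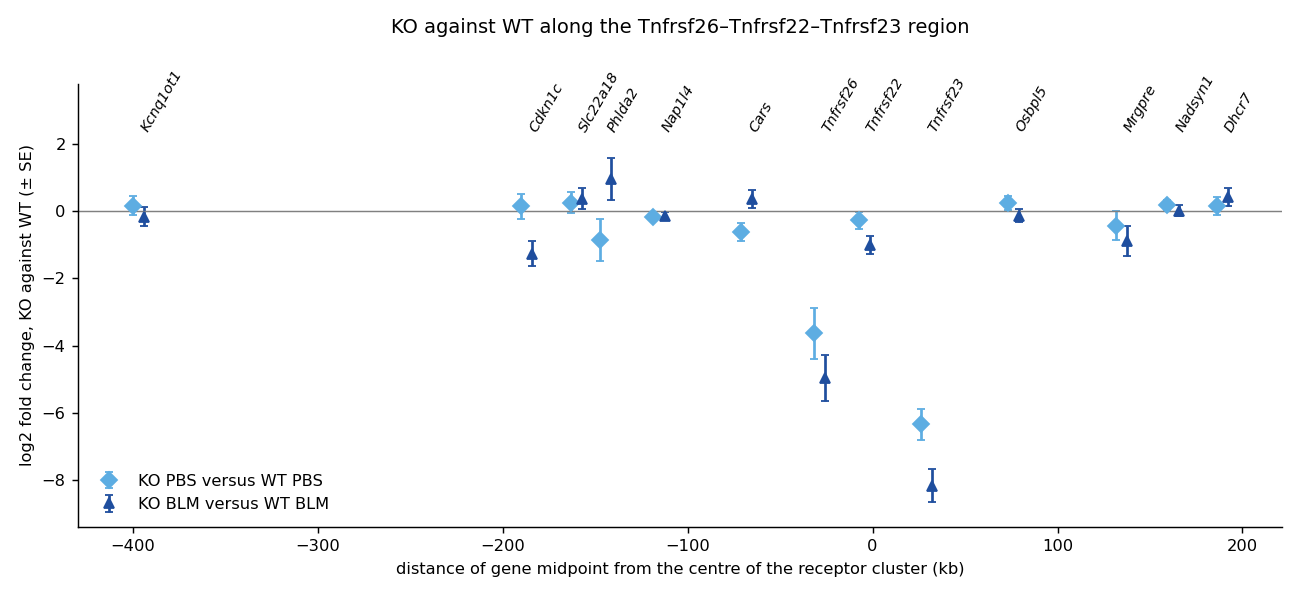
Log2 fold change ± SE of KO against WT for the 3 clustered receptor genes and the 10 tested neighbours, plotted by the distance of each gene's midpoint from the centre of the cluster in kb, under PBS (diamonds) and bleomycin (triangles). Tnfrsf23 and Tnfrsf26 lie at -8.18 to -3.64, whereas the neighbours and Tnfrsf22, between them, lie between -1.26 and 0.96.

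Because no KO mouse had more than 5 counts of Tnfrsf23, its promoter is shown. The RefSeq promoter table held 4 of the 7 genes (Fas, Fasl, Tnfsf10 and Tnfrsf23). The 250 bases before the start of Tnfrsf23 are from the reference (GRCm38.p6) and not from these mice, and capitals mark matches to the motifs found.
Tnfrsf23 promoter, chr7:143685876-143686125, minus strand: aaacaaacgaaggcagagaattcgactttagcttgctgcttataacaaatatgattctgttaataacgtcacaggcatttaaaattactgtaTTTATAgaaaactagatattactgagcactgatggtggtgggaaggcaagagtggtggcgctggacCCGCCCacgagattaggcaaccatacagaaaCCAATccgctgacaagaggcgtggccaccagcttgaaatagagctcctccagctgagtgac
Searched on both strands, the window held 1 match each to CCAAT, to the GC box GGGCGG and to TATAAA. Over all 32851 promoters in the table, 33.8% held CCAAT, 32.7% the GC box and 12.4% TATAAA. The AP-1 motif TGANTCA (6.75% of all promoters) and the GAS motif TTCNNNGAA (7.02%) had 0 matches there. Fas held 1 match to the AP-1 motif and 1 to the GAS motif, and Fasl and Tnfsf10 held neither.

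Tnfrsf10b, the mouse TRAIL receptor with a death domain, varied less than the decoys. Its counts were 312, 308 and 314 in WT PBS and 229, 383 and 368 in WT BLM mice, against 239, 246 and 204 in KO PBS and 317, 370 and 286 in KO BLM. The level was 9.56 ± 1.37, 11.2 ± 1.92, 7.01 ± 0.932 and 10.4 ± 0.928 CPM in these groups. The KO PBS mice were the lowest group, by a narrow margin (7.94 against 7.99 CPM at the nearest WT PBS mouse), while the other 3 groups overlapped. The log2 fold change with bleomycin was 0.23 ± 0.18 in WT mice (edgeR adjusted p = 0.349) and 0.57 ± 0.18 in KO mice (edgeR adjusted p = 0.159). The latter passed the test without KO PBS replicate 136 (edgeR adjusted p = 0.0488), when 14% of all genes were called in KO mice. It also passed without both replicates 136 and 141 (edgeR adjusted p = 0.042), when 22.3% were. In each case 1 of the 7 genes was called. The responses of the genotypes differed by 0.35 ± 0.26 on the log2 scale (edgeR adjusted p = 0.365), and KO BLM differed from WT BLM by -0.1 ± 0.18 (edgeR adjusted p = 0.788).

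Per kilobase of exon, the summed level of the decoy genes Tnfrsf22 and Tnfrsf23 relative to Tnfrsf10b was 1.31 to 1.98 in WT PBS mice and 4.13 to 5.56 in WT BLM mice. It was 0.389 to 0.848 in KO PBS mice and 0.47 to 0.584 in KO BLM mice. The ratio was thus above 1 in all 6 WT mice and below 1 in all 6 KO mice, which follows in large part from Tnfrsf23. With Tnfrsf22 alone, it was 0.47 to 0.626 in WT PBS and 0.769 to 1.39 in WT BLM mice, against 0.389 to 0.82 in KO PBS and 0.457 to 0.569 in KO BLM. These ratios are transcript levels and use the choice of Tnfrsf23, so they were not tested.

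Among all 7 genes, the order of levels per kilobase also differed by genotype. In WT BLM, Tnfrsf23 was the highest at 7.35 CPM per kb, followed by Fas at 5.35 and Tnfrsf26 at 2.99. The place of Tnfrsf26 was not firm, since its SD was 0.916, and in replicate 145 its level (1.99) was below that of Tnfrsf22 (2.28). Tnfsf10 (2.15), Tnfrsf10b (2.05) and Tnfrsf22 (2.04) differed by less than their spread, and Fasl was the lowest at 0.162. In KO BLM, Fas was the highest at 4.44 CPM per kb, followed by Tnfrsf10b (1.91), Tnfsf10 (1.52) and Tnfrsf22 (1.02), with Fasl at 0.197, Tnfrsf26 at 0.0963 and Tnfrsf23 at 0.0245.

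Fas, the receptor for FASL, was lowest in WT PBS mice and higher in the other groups. The WT PBS mice had 3.62, 4.44 and 4.3 CPM and the WT BLM mice 10.7, 11.4 and 11. The KO PBS mice had 4.98, 11.3 and 9.5 CPM and the KO BLM mice 8.01, 10.5 and 8.94. The WT groups were far apart, whereas the KO groups overlapped, and replicate 136 was the low KO PBS mouse. Fas rose with bleomycin in WT mice by a log2 fold change of 1.42 ± 0.26, or 2.68-fold (edgeR adjusted p = 0.0066). The KO response was 0.09 ± 0.26 (edgeR adjusted p = 0.864). It was -0.18 without KO PBS replicate 136 and -0.02 without KO BLM replicate 143, so its direction was not settled. KO BLM differed from WT BLM by -0.27 ± 0.26 (edgeR adjusted p = 0.592), and KO PBS from WT PBS by 1.06 ± 0.26, which was not tested.

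Tnfsf10, which encodes TRAIL, was like Fas lowest on average in WT PBS and highest in WT BLM mice. Its KO groups overlapped, and their means stood in the reverse order of those of Fas. The WT PBS mice had 5, 5.03 and 4.4 CPM, the WT BLM mice 7.39, 15.5 and 11, the KO PBS mice 4.95, 11.8 and 11.9, and the KO BLM mice 8.9, 8.71 and 6.46. Replicate 136 lay within the range of the WT PBS mice, and the other KO PBS mice lay within the range of WT BLM. Tnfsf10 rose in WT mice by 1.23 ± 0.35 on the log2 scale (edgeR adjusted p = 0.0254). In KO mice the difference was -0.25 ± 0.34 (edgeR adjusted p = 0.7), and KO BLM differed from WT BLM by -0.49 ± 0.34 (edgeR adjusted p = 0.461).

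The difference between the bleomycin responses, KO minus WT, was tested for the 4 genes outside the cluster. It was -1.33 ± 0.37 for Fas (edgeR adjusted p = 0.0751) and -1.48 ± 0.49 for Tnfsf10 (edgeR adjusted p = 0.0945). Thus 0 of 4 were called by edgeR (2 at an unadjusted p under 0.05, 2 by DESeq2). Over all genes, edgeR called 0%, 31.1% had an unadjusted p under 0.05 and DESeq2 called 18.5%. Fas and Tnfsf10 passed the test in DESeq2 (adjusted p = 0.012 and 0.0293). They also passed without KO PBS replicate 136, at -1.6 ± 0.22 (edgeR adjusted p = 0.000872) and -1.79 ± 0.36 (edgeR adjusted p = 0.00435), when 39.9% of all genes were called. With the growing hair list as a covariate, the difference was -0.21 ± 0.37 for Fas (edgeR adjusted p = 0.895) and -0.73 ± 0.72 for Tnfsf10 (edgeR adjusted p = 0.814). For the clustered genes, for which no test was made, the difference was -1.82 ± 0.73 for Tnfrsf23, -1.31 ± 1.09 for Tnfrsf26 and -0.73 ± 0.37 for Tnfrsf22.

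The levels of Fas and Tnfsf10 were lowest in 4 of the 5 mice with the most transcripts of growing hair. The 5 mice in which the growing hair list averaged 9.17 log2 CPM or more were the 3 WT PBS mice, KO PBS replicate 136 and KO BLM replicate 141. Replicate 141 did not share the low levels, since its Fas was 8.01 CPM, against 3.62 to 4.98 in the other 4, and its Tnfsf10 was 8.9 CPM, the highest of the KO BLM mice. With this list as a covariate, the WT response of Fas was 0.65 ± 0.26 (edgeR adjusted p = 0.404), that of Tnfsf10 0.74 ± 0.49 (edgeR adjusted p = 0.678) and that of Tnfrsf23 1.13 ± 0.62 (edgeR adjusted p = 0.568). In WT mice the list followed treatment without overlap, so hair state and bleomycin cannot be told apart there. The low counts of Tnfrsf23 in KO mice were present in mice at both ends of the list, with 0 counts in replicate 136 and 3 to 5 in the other KO mice. The cause of these low counts was not tested.

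**Figure D4:**
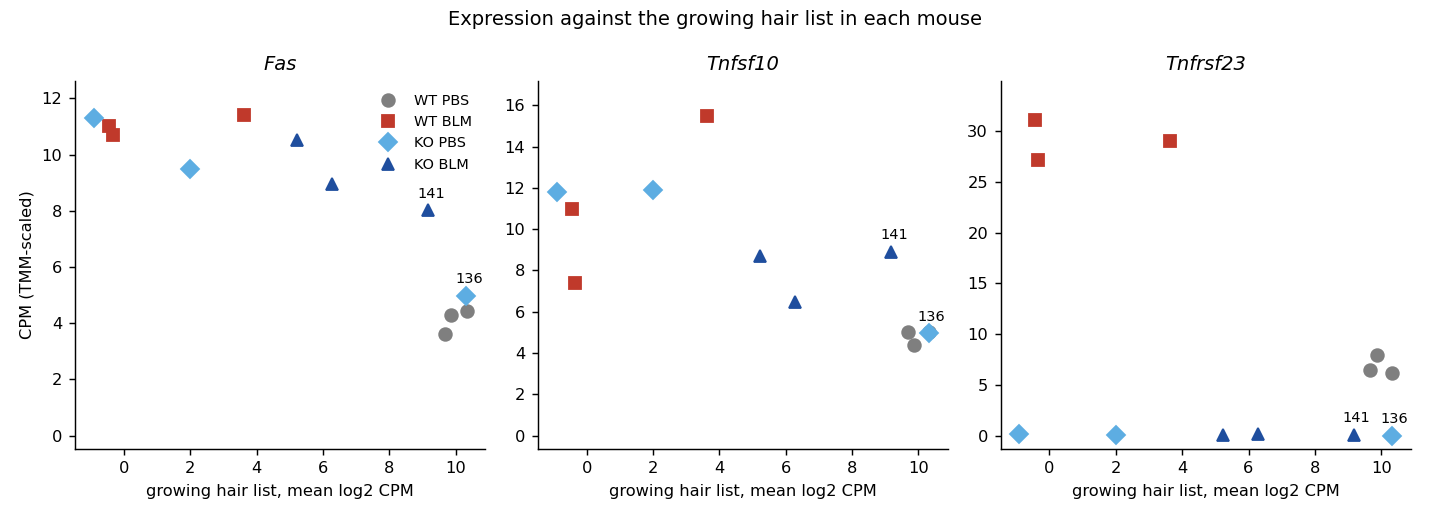
Level of Fas, Tnfsf10 and Tnfrsf23 in CPM (TMM-scaled) against the mean log2 CPM of the growing hair list in each of the 12 mice, with replicates 136 and 141 labelled. Fas is 3.62 to 4.98 CPM in the 3 WT PBS mice and replicate 136, which lie at the right, whereas replicate 141, also at the right, has 8.01 CPM, and Tnfrsf23 is near 0 in all 6 KO mice along the whole axis.

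Fasl was close to the limit of detection in every group. The WT PBS mice had 0, 3 and 3 counts, the WT BLM mice 9, 11 and 7, the KO PBS mice 2, 5 and 3, and the KO BLM mice 7, 22 and 7. Bleomycin-treated mice were above PBS-treated mice without overlap in both genotypes. The level was 0.0583 ± 0.0517 CPM in WT PBS and 0.313 ± 0.0726 in WT BLM mice, against 0.0995 ± 0.0392 in KO PBS and 0.381 ± 0.261 in KO BLM. The log2 fold change was 2.31 ± 0.73 in WT mice (edgeR adjusted p = 0.035) and 1.89 ± 0.66 in KO mice (edgeR adjusted p = 0.171), and the responses differed by -0.42 ± 0.97 (edgeR adjusted p = 0.778). Among the 4 genes that reached the filter level in every KO mouse, Tnfrsf10b was the 1 without overlap, against 19.3% of all genes. KO BLM differed from WT BLM by 0.29 ± 0.59 on the log2 scale (edgeR adjusted p = 0.814). This became -0.43 without KO BLM replicate 143. Fasl passed the filter on low counts through 3 bleomycin-treated mice, so that a difference was built into its passing. Its WT call was lost with no filter (edgeR adjusted p = 0.059) and when any 1 of the 6 WT mice was left out.

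Markers of the cells known to make FASL rose in the same comparison. Of 17 T and NK cell markers, 15 were called higher with bleomycin in WT mice, where 19.8% of all genes were. Their median log2 fold change was 1.64 against 0.02 for all genes. None of the 17 was at 0 in all mice of a group, and their summed level was 36.6 to 44 CPM in WT PBS and 91.5 to 143 in WT BLM mice, against 35.9 to 92.6 in KO PBS and 99.2 to 169 in KO BLM. The highest KO BLM value belonged to replicate 143, which also had the most Fasl counts. Tnfsf10 is known to be induced by interferon, and all 14 interferon response genes were called higher in WT BLM. Their summed level was 112 to 158 CPM in WT PBS and 690 to 1000 in WT BLM mice, against 113 to 449 in KO PBS and 465 to 655 in KO BLM. Other cell types moved in the same comparison, where 34% of all genes were called and 19.8% called higher. Of the markers tested, 9 of 10 for macrophages, 9 of 10 for skeletal muscle, 5 of 6 for neutrophils, 5 of 8 for fibroblasts, 4 of 6 for endothelial cells, 1 of 10 for keratinocytes and 0 of 6 for adipocytes were called higher in WT BLM. Between KO BLM and KO PBS, no gene of any of these lists was called by edgeR, where 0.306% of all genes were. The median log2 fold change there was 0.91 for the T and NK cell markers and 1.02 for the interferon response genes, against -0.01 for all genes. The part of these cell types in the levels of the 7 genes was not tested.

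The other genes of the death receptor pathway were taken from a list of 38 genes, all tested. In WT mice, 12 were called higher and 2 lower with bleomycin, against 34% of all genes called and 19.8% called higher. The share called was thus near that of all genes, and the median log2 fold change was 0.29 against 0.02. Among the ligands, Tnf (1.6 ± 0.38, edgeR adjusted p = 0.0133) and Tnfsf12, which encodes TWEAK (1.44 ± 0.41, edgeR adjusted p = 0.0255), rose. Among 8 receptors, 3 changed. Tnfrsf1b, the second TNF receptor, rose by 2.13 ± 0.32 (edgeR adjusted p = 0.0041), and Edar, the ectodysplasin receptor of hair follicle development, fell by 2.61 ± 0.43 (edgeR adjusted p = 0.00487). Tnfrsf21 was the other receptor called higher. Edar fell together with the growing hair list, of which 12 of 23 tested genes were called lower.

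Of the 8 adaptors and enzymes that act at the receptor, Casp8, the initiator caspase, rose by a log2 fold change of 0.89 ± 0.19 (edgeR adjusted p = 0.00936) and the kinase gene Ripk1 by 0.45 ± 0.11 (edgeR adjusted p = 0.0162). The adaptor Fadd differed by 0.19 ± 0.15 (edgeR adjusted p = 0.312) and Cflar, which encodes the caspase-8 inhibitor FLIP, by 0.21 ± 0.1 (edgeR adjusted p = 0.14). Among 9 executioner and mitochondrial genes, 2 rose, Apaf1, the apoptosome scaffold, by 0.66 ± 0.2 (edgeR adjusted p = 0.0339) and Bak1, which permeabilizes the mitochondrial outer membrane, by 0.42 ± 0.15 (edgeR adjusted p = 0.0494). Of 7 inhibitors, Birc3, an inhibitor of apoptosis that ubiquitinates RIPK1, rose by 0.96 ± 0.22 (edgeR adjusted p = 0.0129), Cyld also rose, and Faim2, an inhibitor of FAS-mediated death, fell by 2.14 ± 0.47 (edgeR adjusted p = 0.0104). Both genes of the necroptosis arm rose, Mlkl, the pore-forming effector, by 1.59 ± 0.24 (edgeR adjusted p = 0.0041) and its kinase Ripk3 by 1.2 ± 0.27 (edgeR adjusted p = 0.0112). In WT mice, members that carry death signals and members that restrain them were thus both among the genes called higher.

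In KO mice, 0 of the 38 genes were called by edgeR with bleomycin (11 at an unadjusted p under 0.05, 4 by DESeq2), with a median log2 fold change of 0.18 against -0.01 for all genes. Over all genes, 0.306% were called by edgeR, 20% at an unadjusted p and 6.14% by DESeq2. Without KO PBS replicate 136 there were 4, when 14% of all genes were called, and without replicates 136 and 141 there were 8, when 22.3% were. Bak1 (0.71 ± 0.15, edgeR adjusted p = 0.0755), Bax (0.82 ± 0.18, edgeR adjusted p = 0.0892) and Mlkl (0.88 ± 0.23, edgeR adjusted p = 0.119), named after their values were seen, had the lowest p among them. Between KO BLM and WT BLM, 0 of 38 were called (4 unadjusted, 2 by DESeq2), against 0.0928%, 16.6% and 3.34% of all genes, with a median of -0.08 against -0.03. The difference between responses gave 0 of 38 by edgeR, 9 unadjusted and 6 by DESeq2, against 0%, 31.1% and 18.5% of all genes. It gave 15 without KO PBS replicate 136, against 39.9% of all genes.

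**Figure D5:**
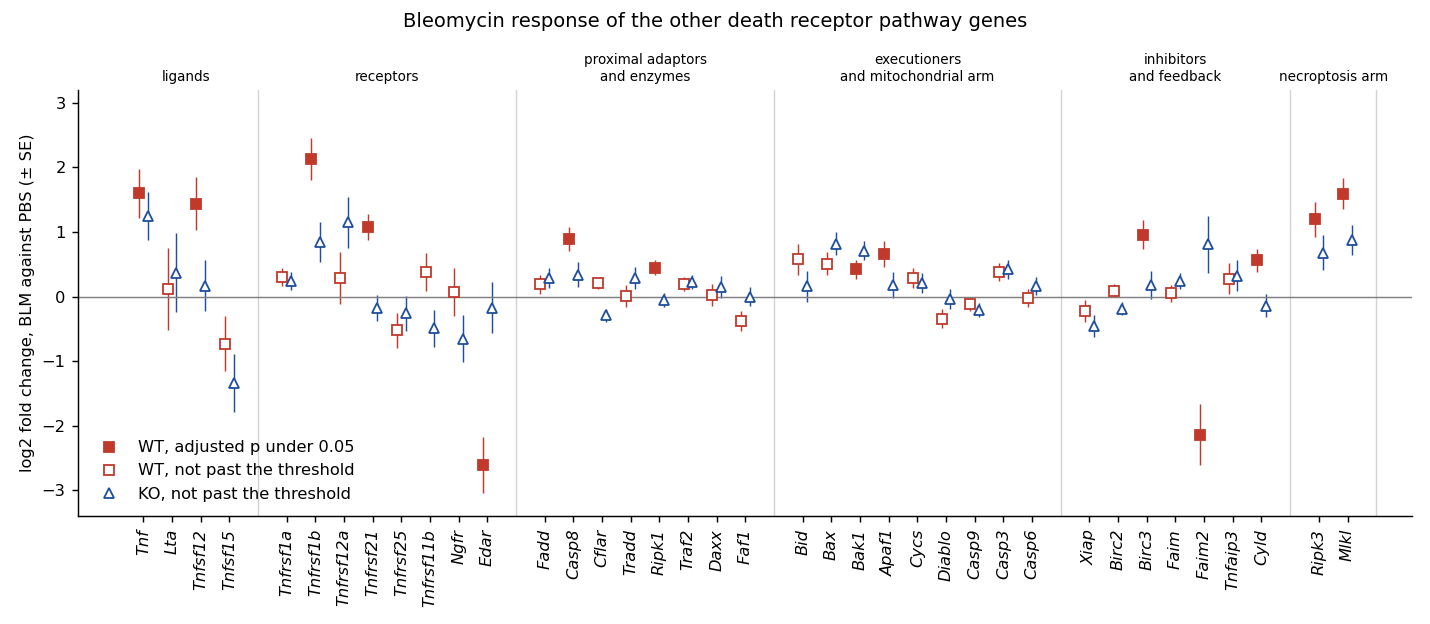
Log2 fold change ± SE of BLM against PBS for the 38 other pathway genes, ordered by role, in WT mice (squares) and KO mice (triangles); filled symbols passed edgeR's test. In WT mice, 12 genes were called higher and 2 (Edar and Faim2) lower, and in KO mice 0 were called.

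Fas and Tnfrsf10b are also known targets of p53, which bleomycin activates through DNA damage. Of 18 other p53 target genes, 8 were called higher with bleomycin in WT mice, where 19.8% of all genes were, and 2 in KO mice, where 0.306% of all genes were called. In KO mice, 8 had an unadjusted p under 0.05 and 5 were called by DESeq2, against 20% and 6.14% of all genes. Without KO PBS replicate 136, 8 were called in KO mice, when 14% of all genes were. Without replicates 136 and 141, 11 were, when 22.3% of all genes were. In WT mice, 12 were called in each of these 2 settings, when 8565 and 9159 genes were called over the whole table. The median log2 fold change was 0.16 in WT mice, against 0.02 for all genes, and 0.23 in KO mice, against -0.01. Between KO BLM and WT BLM, 0 of the 18 were called by edgeR (4 unadjusted, 1 by DESeq2), with a median of 0.15 against -0.03 for all genes.

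Across the 12 mice, log2 CPM of Tnfrsf23 and Tnfrsf26 had a Pearson r of 0.92, Tnfrsf22 and Tnfrsf26 one of 0.84, and Fas and Tnfsf10 one of 0.86, whereas Fas and Tnfrsf23 had an r of -0.06. These coefficients describe 12 points that share 4 group means, and no p is attached. Of 13201 or 13202 named genes that averaged 1 log2 CPM or more, those most like Fas were Trim12a (r = 0.988), Plcl2 (0.982) and Abcg2 (0.981). Those most like Tnfsf10 were Cnp (0.97), Nr2f2 (0.97) and Nr1h3 (0.969), and those most like Tnfrsf10b were Tsku (0.903), Gpr35 (0.889) and Ralb (0.887). Fasl was closest to Chga (0.92), Ly9 (0.892) and Gpr65 (0.891), and Tnfrsf22 to Ppargc1b (0.962), Lrrk1 (0.947) and Cep85 (0.936).

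The genes most like the switch-like members were less close in range. Tnfrsf23 was nearest to Dnajc5 (r = 0.878), Pxn (0.87) and Ttc19 (0.848), none of which approached 0 in KO mice. Dnajc5, for example, had 121 ± 4.06 CPM in WT PBS and 129 ± 7.95 in WT BLM mice, against 112 ± 2.28 in KO PBS and 109 ± 2.66 in KO BLM. Tnfrsf26 was nearest to Slc39a7 (0.919), Thy1 (0.908) and Ptpre (0.881). Thy1, on another chromosome, shared with Tnfrsf26 the highest levels in WT BLM and the lowest in KO PBS.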

How the data were processed

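RNA-Seq of skin covered 12 mice, 3 for each combination of genotype (WT or KO) and treatment (PBS or BLM). The authors prepared stranded mRNA libraries, sequenced read pairs and deposited read counts per gene, whole numbers without normalization. The submitters' processing notes name GRCm38.p6 and MultiQC 1.7; aligner, counter, annotation and use of strand are not given in the sources used here. Totals were 26473700 to 38890450 counts. Of 34689 genes with a count, filterByExpr (10 counts, 15 in total) kept 18311, including all 7 members.

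Counts were scaled by TMM and fitted in edgeR 4.0.16 (R 4.3.3) with 4 group means, quasi-likelihood tests, Benjamini-Hochberg adjustment over all genes tested and a threshold of 0.05. The SE is the log2 fold change divided by the square root of F. Log2 CPM used a prior count of 2. The members and lists were chosen with earlier results of these data known. Tests of members and neighbours were left out between PBS-treated genotypes, and for the clustered genes also for the difference between responses. For Tnfrsf23 and Tnfrsf26, p-values between bleomycin-treated genotypes are not given, since they met the filter mainly through WT mice and the comparison behind their choice is not stated. Named genes were all members, up to 2 called genes per role and comparison with the smallest p, all tested neighbours within 500 kb, and the 3 genes with the highest r to each member. Mice are separate animals, but litters and batches are not named. In simulated data for WT BLM against WT PBS (18008 genes, 200 changed 4-fold), 185 were recovered and 13 other genes called. No libraries were duplicates. Of the death receptor pathway list, 1 gene is not reported here and was left out of the list's counts. Alternatives were DESeq2 1.42.0, RLE and upper-quartile scaling, no filter, a mean of at least 1 CPM, only the groups compared, each mouse left out, replicates 136 and 141 left out, and growing hair as a covariate; the last pair was taken from earlier results of these data. Positions are from GENCODE M21 and promoters from RefSeq (GRCm38.p6).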

Additional observations from a re-analysis of the deposited data

How the results depend on the processing

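In WT mice, the number of the 7 genes called with bleomycin was 6, between 3 and 6 when 1 mouse was left out. It was 0 with the growing hair covariate, when 14 genes over the whole table were called instead of 6222. In KO mice it was 0, between 0 and 1 when 1 mouse was left out, and 1 (Tnfrsf10b) without replicates 136 and 141. The counts with bleomycin take in Fasl, which met the filter through bleomycin-treated mice only, and Tnfrsf23 and Tnfrsf26, which met it mainly through WT mice. Of the 6 genes at the filter level in every WT mouse, 5 were called in WT mice. Between KO BLM and WT BLM, 0 of the 4 genes at the filter level in every mouse of both groups were called. Of these 4, Tnfrsf22 was called in DESeq2 and without KO PBS replicate 136. For the difference between responses, 0 of 4 genes were called, between 0 and 2 when 1 mouse was left out. The number was 2 in DESeq2 and 2 without replicates 136 and 141. Among alternatives for single genes, 617 kept direction and side of the threshold (or stayed within 1 SD where no test was made), 31 fell below it, 10 passed it, 12 moved by more than 1 SD and 12 changed direction.

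Those 12 directions were of values not past the threshold or not tested. The KO response of Fas ran from -0.18 (without KO PBS replicate 136) to 0.34 when 1 mouse was left out, was -0.02 when that mouse was KO BLM replicate 143, and was -0.09 when both 136 and 141 were. That of Tnfrsf23 ran from -0.26 (without 136) to 0.99, and was -0.23 without both, and that of Tnfsf10 was 0.01 with the growing hair covariate. KO BLM against WT BLM, Fasl ran from -0.43 (without KO BLM replicate 143) to 0.61 when 1 mouse was left out, and Fas was 0.23 with the covariate. The difference between responses ran from -1.91 to 0.82 (without KO PBS replicate 139) for Tnfrsf26 and from -1.15 to 0.08 (without WT PBS replicate 159) for Fasl when 1 mouse was left out, and was 0.81 for Fasl with the covariate and 0.15 for Tnfrsf22 with the covariate. The causes were not tested. Genes called over the whole table also moved: without KO PBS replicate 136, 2632 genes were called in KO mice instead of 56. No paired analysis was possible because every mouse has its own number and none is shared between groups. With 3 mice a group, an exact permutation test of a single gene could not reach a p below 0.1. Low counts limit Fasl in all groups and Tnfrsf23 and Tnfrsf26 in KO mice. The KO responses of Tnfrsf23 and Tnfrsf26 did not pass the test, with SEs of 0.61 and 0.81 on the log2 scale. Their size is therefore uncertain.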
